A study of Mus musculus with 8 samples.

Results

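The 9 genes described here set how pyruvate enters mitochondria and is oxidized there. They are the 4 pyruvate dehydrogenase kinases *Pdk1*, *Pdk2*, *Pdk3* and *Pdk4*, the 2 pyruvate dehydrogenase phosphatases *Pdp1* and *Pdp2*, the catalytic subunit gene *Pdha1*, and the 2 mitochondrial pyruvate carrier genes *Mpc1* and *Mpc2*. They were taken by symbol, through their Ensembl identifiers, from a table of 38283 genes measured by mRNA sequencing of mouse liver. The study asked how hepatic loss of the nuclear receptor RORα changes liver gene expression when mice are fed a control diet (CD) or a high-fat diet (HFD). Male mice carried floxed *Rora* alleles (RORα f/f), and the knockout group also carried Cre recombinase under the albumin promoter (Alb-cre;RORα f/f, called LKO), which is active in hepatocytes. Both genotypes therefore share the floxed alleles. Mice were 8 weeks old when the diet began and were fed for 10 weeks. Each of the 4 groups has 2 libraries, and each library pools the livers of 2 mice, so that p values measure the spread between pools.

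Pyruvate made from glucose, lactate or alanine crosses the inner mitochondrial membrane through a carrier built of the MPC1 and MPC2 proteins, which need each other. Inside, the pyruvate dehydrogenase complex converts it to acetyl-CoA, a step that cannot be reversed and so commits carbon to oxidation or to fat synthesis. The kinases phosphorylate the E1 alpha subunit, the product of *Pdha1*, and switch the complex off, whereas the phosphatases switch it on again. In liver, *Pdk2* and *Pdk4* are best known for sparing pyruvate for gluconeogenesis in fasting and when fatty acids are burned.

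The values are FPKM, in which fragments are divided by transcript length and library size, so that levels of different genes are compared per length. Such values carry no read counts, so that the counting error of each value is unknown. A library had 10587 to 10706 genes above 1 FPKM. Its 10 highest genes held 29.7% to 43.7% of all FPKM, with the largest share in the second CD-fed f/f library. *Rora* was read as a check of the labels. It was listed at 8.85 and 8.59 FPKM in the CD-fed f/f libraries and at 7.96 and 8.18 in the CD-fed LKO-labelled libraries. On HFD, it was at 7.56 and 7.86 in f/f and at 7.30 and 8.02 in LKO-labelled libraries, which overlap (limma adjusted p = 0.974). FPKM over the whole gene also takes reads outside the floxed exons, so that it does not check the deletion, and the libraries are called LKO-labelled here. Hepatocyte transcripts such as *Apoa1* (4407 to 6290 FPKM) and *Ttr* (3994 to 4541 FPKM) were abundant in all 8 libraries. *Alb* was listed at 0 in 4 of them, which in such a table can be a failed estimate. These were the second HFD-fed f/f, the first CD-fed LKO-labelled and both HFD-fed LKO-labelled libraries, so that they fall unevenly over diets and genotypes. None of 8 markers of skeletal and cardiac muscle, where *Pdk4* is high, passed 1 FPKM in any library.

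The levels of the 9 genes spanned several orders of magnitude. *Mpc1* was the most abundant in each of the 8 libraries, with 130 to 214 FPKM and a median of 164, above 96% of the 10576 genes whose median passed 1 FPKM. *Mpc2* (67.9 to 77.6), *Pdk2* (58.5 to 67.7) and *Pdha1* (50.8 to 69.8) followed, and the range of *Pdha1* over the libraries overlapped both of the others. *Pdk1* (22.2 to 33.6) and *Pdp2* (9.82 to 12.7) came next, each apart from its neighbours in every library. *Pdk4* ranged from 1.18 to 4.10 FPKM, with a median above only 10.3% of those genes. *Pdp1* (0.208 to 0.381) and *Pdk3* (0 to 0.277) lay below 1 FPKM in every library, and their ranges overlapped. These 2 genes did not enter the tests, and the other 7 passed the filter of 1 FPKM in all 8 libraries.

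**Figure D1:**
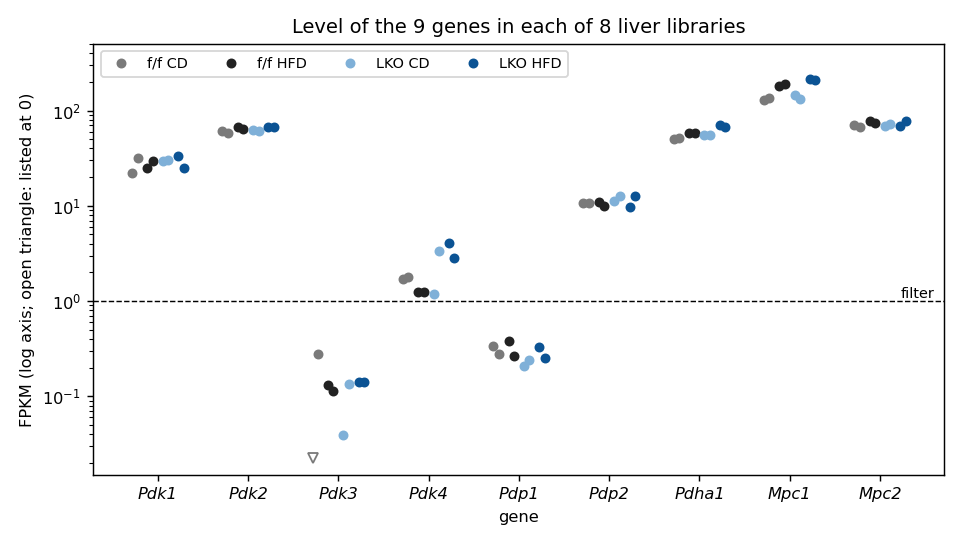
FPKM (log axis) of the 9 genes, each point being 1 library, colored by genotype and diet; the open triangle marks a library in which the gene is listed at 0, and the dashed line the filter of 1 FPKM. *Mpc1* lies highest at 130 to 214 FPKM, *Pdk4* just above the filter at 1.18 to 4.10, and *Pdp1* and *Pdk3* below it in all libraries.

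The 4 kinases are paralogs, which bears on how far reads can be told apart. Their coding sequences were 67.4% to 69.2% identical in pairs, and of 1192 alignment columns without a gap, 553 were identical in all 4. The stretch of 60 bases with the most identity is given here for the transcripts Pdk1-201, Pdk2-201, Pdk3-201 and Pdk4-201, with the positions at which the 4 genes differ in capitals. It covers coding bases 1049 to 1108 of *Pdk1*, 968 to 1027 of *Pdk2*, 962 to 1021 of *Pdk3* and 980 to 1039 of *Pdk4* on the GRCm38 annotation.
Pdk1: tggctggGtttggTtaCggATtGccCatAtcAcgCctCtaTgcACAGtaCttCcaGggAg
Pdk2: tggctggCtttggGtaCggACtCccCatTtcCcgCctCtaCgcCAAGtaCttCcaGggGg
Pdk3: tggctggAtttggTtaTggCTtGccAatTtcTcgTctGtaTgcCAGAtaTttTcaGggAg
Pdk4: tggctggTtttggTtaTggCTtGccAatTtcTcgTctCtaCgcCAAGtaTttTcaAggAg
Even here 20 of the 60 bases differ among the genes, and the longest run shared by any pair of the kinase coding sequences was 29 bases, between *Pdk3* and *Pdk4*. *Mpc1* is different in this respect, since the processed pseudogene *Mpc1-ps* shares a run of 286 of its 330 bases with the coding sequence of transcript Mpc1-208. The pseudogene was listed at 1.63 to 4.09 FPKM against 130 to 214 for *Mpc1*, and the division of reads between the 2 copies is uncertain. The testis paralog *Pdha2* was listed at 0 in all libraries.

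Among the kinases, *Pdk2* (chromosome 11 of GRCm38, 95026258 to 95041354, minus strand) made up most of the summed FPKM. The sum of the 4 kinases was 84.4 to 104 FPKM per library, of which *Pdk2* took 63.2% to 72.1%, *Pdk1* 26.3% to 34.6% and *Pdk4* 1.27% to 3.92%. *Pdk2* was listed at 60.5 and 58.5 FPKM in CD-fed f/f livers and at 67.7 and 64.4 in HFD-fed f/f livers. In LKO-labelled livers it was at 62.1 and 61.6 on CD and at 66.6 and 66.5 on HFD. All 4 HFD libraries thus lay above all 4 CD libraries, whereas the genotypes lay close together on each diet.

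*Pdk4* (chromosome 6, 5483351 to 5496309, minus strand), the isoform known for its rise in fasting, was the most variable of the 7 tested genes relative to its level. Its FPKM was 1.70 and 1.80 in CD-fed f/f livers and 1.24 and 1.24 in HFD-fed f/f livers. In LKO-labelled livers it was 1.18 and 3.34 on CD and 4.10 and 2.80 on HFD. Both HFD-fed LKO-labelled libraries lay above both HFD-fed f/f libraries, and the CD-fed LKO-labelled libraries stood on either side of the CD-fed f/f pair. The genotype means on HFD were 3.45 ± 0.914 and 1.24 ± 0.00378 FPKM (SD, n = 2 libraries each).

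*Pdk1* (chromosome 2, 71873224 to 71903858, plus strand), a kinase best known as a target of hypoxia signaling, overlapped between the genotypes on each diet and between the diets in each genotype. It was at 22.2 and 32.0 FPKM in CD-fed f/f, 24.8 and 29.4 in HFD-fed f/f, 29.5 and 30.4 in CD-fed LKO-labelled and 33.6 and 24.8 in HFD-fed LKO-labelled livers. *Pdk3* (chromosome X, 93764607 to 93832201, minus strand) was listed at 0 in the first CD-fed f/f library and at 0.277 in the second, and between 0.0390 and 0.142 in the other libraries.

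No difference of *Pdp2* between genotypes or diets was called, and *Pdp1*, which lay below the filter, was not tested. *Pdp2* (chromosome 8, 104591451 to 104599026, plus strand) was at 10.7 and 10.8 FPKM in CD-fed f/f, 10.9 and 9.92 in HFD-fed f/f, 11.3 and 12.7 in CD-fed LKO-labelled and 9.82 and 12.5 in HFD-fed LKO-labelled livers. *Pdp1* (chromosome 4, 11958184 to 11966452, minus strand), the calcium-sensitive isoform of muscle, stayed below 0.381 FPKM in 7 libraries and was at 0.381 in the first HFD-fed f/f library. The 2 phosphatases summed to 10.2 to 13.0 FPKM, almost all of it from *Pdp2*.

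*Pdha1* (chromosome X, 160122209 to 160138413, minus strand) encodes the subunit that the kinases phosphorylate. It was listed at 50.8 and 51.8 FPKM in CD-fed f/f livers and at 58.1 and 58.1 in HFD-fed f/f livers. LKO-labelled livers had 55.6 and 54.9 on CD and 69.8 and 67.2 on HFD. Within each genotype the HFD libraries lay above the CD libraries, and within each diet the LKO-labelled libraries lay above the f/f libraries. The highest mean was that of HFD-fed LKO-labelled livers, 68.5 ± 1.85 FPKM (SD, n = 2 libraries).

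Of the carrier genes, *Mpc1* covered a wider range of FPKM than *Mpc2* did. *Mpc1* (chromosome 17, 8282904 to 8297661, plus strand) was at 130 and 134 FPKM in CD-fed f/f, 182 and 192 in HFD-fed f/f, 146 and 132 in CD-fed LKO-labelled and 214 and 211 in HFD-fed LKO-labelled livers. The HFD libraries lay above the CD libraries in both genotypes. On HFD, both LKO-labelled libraries also lay above both f/f libraries, which was not so on CD. *Mpc2* (chromosome 1, 165460637 to 165481214, plus strand) was at 71.2 and 67.9 in CD-fed f/f, 77.5 and 74.1 in HFD-fed f/f, 69.2 and 72.6 in CD-fed LKO-labelled and 69.03 and 77.6 in HFD-fed LKO-labelled livers, a narrow range throughout. Strand was not stated for the counting, so that reads of 4930506C21Rik (0.752 to 2.91 FPKM), which overlaps *Mpc1* on the minus strand, and of *Map3k15* (0.195 to 0.510 FPKM), which overlaps *Pdha1* on the plus strand, cannot be told apart from those of the 2 genes where they overlap. *Pdk2* and *Mpc2* also overlap the predicted genes Gm11513 and Gm37860.

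**Figure D2:**
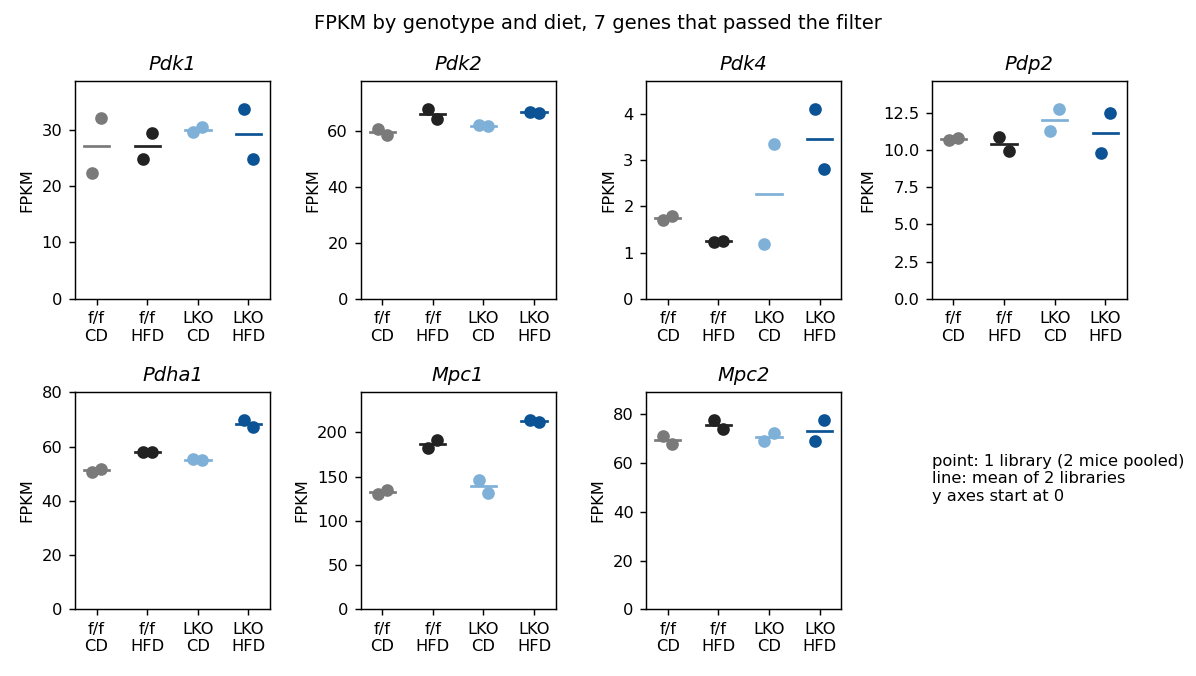
FPKM of the 7 genes that passed the filter, by genotype and diet, on axes that start at 0; points are libraries and lines are means of 2 libraries. The HFD libraries of *Mpc1* and *Pdha1* lie above the CD libraries in both genotypes, and *Pdk4* is spread between 1.18 and 3.34 FPKM in the CD-fed LKO-labelled pair.

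Differences and overlaps were then read on the quantile-normalized log2(FPKM + 1) scale. The comparison of genotypes on HFD addressed the condition in which the study followed the knockout most closely. *Pdk4*, *Pdha1* and *Mpc1* were higher in both LKO-labelled libraries than in both f/f libraries, and *Pdk1*, *Pdk2*, *Pdp2* and *Mpc2* overlapped between the genotypes. The log2 difference was 0.98 for *Pdk4* (SE 0.310, 95% interval 0.248 to 1.72, 1.98-fold). It was 0.27 for *Pdha1* (SE 0.0637, interval 0.121 to 0.425) and 0.23 for *Mpc1* (SE 0.0789, interval 0.0420 to 0.417). None passed the limma test over all 11634 genes, with adjusted p values of 0.376 for *Pdk4*, 0.267 for *Pdha1* and 0.422 for *Mpc1*. Of all genes tested, 0.043% were called in this comparison in either direction. At an unadjusted p under 0.05, 3 of the 7 genes were higher, against 5.46% of all genes, and their groups did not overlap, as held for 21.4% of all genes in the same direction. The scale understates the change of a gene as low as *Pdk4*, whose difference was 1.39 with 0.1 in place of 1 added to FPKM. The median difference of the 7 genes was 0.12 against -0.000673 over all genes.

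Markers of other cells were read beside *Pdk4*, since fat and muscle also express it. Of 8 adipocyte markers, 4 (*Adipoq*, *Lep*, *Retn* and *Plin1*) stayed below 1 FPKM in every library, with *Adipoq* and *Lep* at 0 and *Plin1* at 0.0189 and 0.0197 FPKM in the HFD-fed LKO-labelled libraries. *Lpl* was at 1.43 and 1.25 FPKM in HFD-fed f/f and at 2.545 and 1.87 in HFD-fed LKO-labelled livers, where the pairs did not overlap, and *Fabp4* was at 8.89 and 8.94 and at 10.4 and 8.88, where they did. The summed level of the 8 was 837 to 1065 FPKM in HFD-fed f/f and 1431 to 1762 in HFD-fed LKO-labelled livers, nearly all of it from *Car3*, which hepatocytes also express. *Cfd* was at 0.488 and 1.88 FPKM in HFD-fed f/f and at 5.45 and 5.29 in HFD-fed LKO-labelled livers. The summed level of the 8 muscle markers did not exceed 0.0566 FPKM in any library, and *Acta1*, *Myh6*, *Myh7* and *Tnnt3* were at 0 in all 8. Kupffer cell and macrophage markers were read on HFD as well. *Clec4f*, *Cd68*, *Vsig4* and *Timd4* were higher in both LKO-labelled libraries than in both f/f libraries. *Adgre1*, *Csf1r*, *Marco* and *Lyz2* overlapped between the genotypes. The part of these cells in the *Pdk4* difference was not tested. In bulk liver, fewer cells of a type and less RNA per cell cannot be told apart.

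On CD, none of the genes was called between the genotypes. *Pdk2*, *Pdp2* and *Pdha1* lay higher in both LKO-labelled libraries than in both f/f libraries, by 0.06, 0.16 and 0.13 on the log2 scale, and groups that did not overlap in this direction made up 21% of all genes. In the limma test over all genes, none of the 7 had an unadjusted p under 0.05, against 12.3% of all genes in either direction at that level and 0.0172% called after adjustment. The lowest adjusted p was 0.459, for *Pdha1* (interval -0.0193 to 0.284). *Pdk4* differed by 0.13 (interval -0.609 to 0.863), and this sign rests on a single library. Without the second CD-fed LKO-labelled library, which holds 3.34 FPKM, the difference was -0.37.

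The difference between these differences, the genotype by diet interaction, was tested in the same fit. It was 0.86 for *Pdk4* (SE 0.438, interval -0.184 to 1.90, limma adjusted p = 0.651), 0.16 for *Mpc1* (adjusted p = 0.716) and 0.14 for *Pdha1* (adjusted p = 0.691). The value for *Pdk4* was 0.359 without the first and 1.35 without the second CD-fed LKO-labelled library, at adjusted p values of 0.691 and 0.432. None of the 7 genes passed, also at an unadjusted p under 0.05, where 8.35% of all genes did, and 0.0344% of all genes were called after adjustment. A genotype difference on HFD that is larger than on CD was thus not shown for *Pdk4*, *Mpc1* or *Pdha1*. Averaged over the diets, LKO-labelled livers differed from f/f livers by 0.56 for *Pdk4* (adjusted p = 0.337, and 0.31 without the second CD-fed LKO-labelled library), 0.20 for *Pdha1* (0.146) and 0.15 for *Mpc1* (0.311) in limma. These 3 genes had an unadjusted p under 0.05, against 7.18% of all genes in that direction, and none was called, against 0.103% of all genes in either direction.

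**Figure D3:**
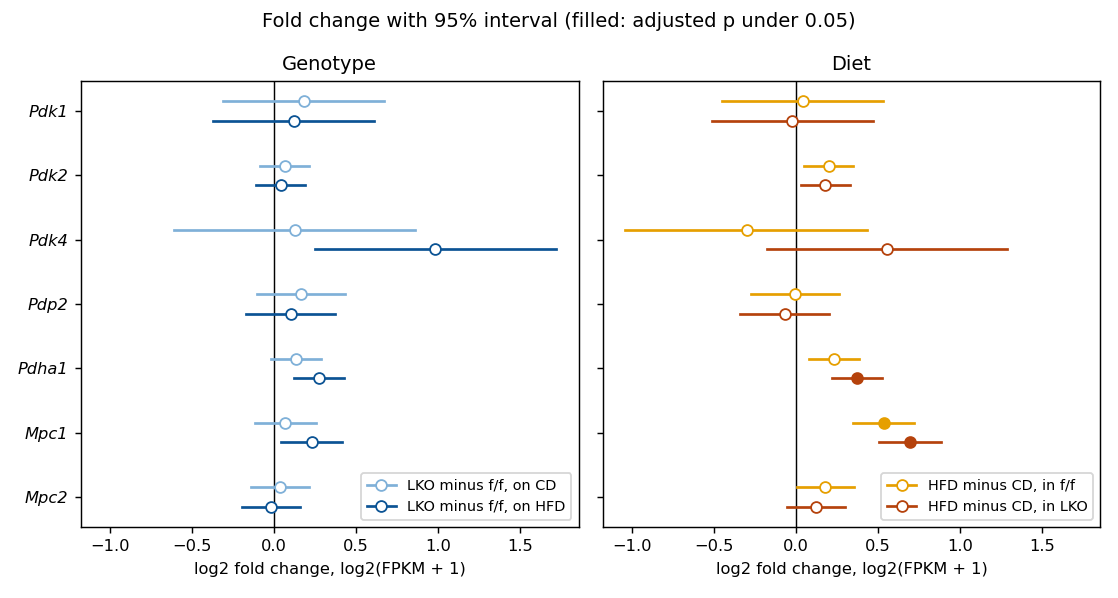
Log2 fold changes of the 7 tested genes with 95% intervals, on the log2(FPKM + 1) scale, for genotype on each diet (left) and for diet in each genotype (right); filled points have a limma adjusted p under 0.05. The filled points are *Mpc1* in both genotypes and *Pdha1* in LKO-labelled livers, all under diet, and the widest intervals are those of *Pdk4*. The 4 comparisons share libraries in pairs.

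More of the 7 genes were called between the diets than between the genotype labels. In f/f livers, *Mpc1* rose on HFD by 0.54 on the log2 scale (SE 0.0789, interval 0.348 to 0.723, 1.45-fold, limma adjusted p = 0.0385). It was the 1 gene of the 7 called, where 0.627% of all genes were called higher. *Pdha1* (0.23, adjusted p = 0.125), *Pdk2* (0.20, 0.158) and *Mpc2* (0.18, 0.249) were also higher in both HFD libraries but did not pass, and with *Mpc1* they make 4 genes with an unadjusted p under 0.05, against 9.94% of all genes in that direction. These 4 did not overlap between the diets, as held for 26.3% of all genes. *Pdk4* was lower in both HFD libraries (-0.30, interval -1.04 to 0.437, adjusted p = 0.647), as were 24.1% of all genes without overlap. The call for *Mpc1* was lost when any of the 8 libraries was left out, with differences of 0.487 to 0.584 and adjusted p values of 0.0577 to 0.194.

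In LKO-labelled livers, *Mpc1* rose on HFD by 0.70 (SE 0.0789, interval 0.508 to 0.883, 1.62-fold, limma adjusted p = 0.0182) and *Pdha1* by 0.37 (SE 0.0637, interval 0.223 to 0.526, 1.30-fold, adjusted p = 0.0357). These were the 2 genes called of 7, where 1.57% of all genes were called higher. *Pdk2* (0.18, adjusted p = 0.169) and *Mpc2* (0.12, 0.379) were higher in both HFD libraries on the normalized scale and did not pass, and the deposited FPKM of *Mpc2* overlapped. All 4 of these genes lay apart, as did 28% of all genes, and 3 had an unadjusted p under 0.05, against 11.7% of all genes in that direction. *Pdk4* differed by 0.56 (interval -0.178 to 1.29, adjusted p = 0.350), and its groups overlapped. That value was 0.0604 without the first CD-fed, 1.06 without the second CD-fed and 0.339 without the first HFD-fed LKO-labelled library. The call for *Mpc1* was lost without the second CD-fed or either HFD-fed LKO-labelled library (adjusted p of 0.0763, 0.0932 and 0.0858), and that for *Pdha1* was lost when any of the 8 libraries was left out (0.0645 to 0.178, with differences of 0.328 to 0.424).

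Averaged over the genotypes, 3 of the 7 genes rose on HFD, where 5.04% of all genes were called higher. *Mpc1* rose by 0.62 (SE 0.0558, limma adjusted p = 0.0036), *Pdha1* by 0.30 (SE 0.0450, adjusted p = 0.0122) and *Pdk2* by 0.19 (SE 0.0444, adjusted p = 0.0439). These 3 genes and *Mpc2* (0.15, adjusted p = 0.114) had an unadjusted p under 0.05, against 14.9% of all genes. For these 4, every HFD library lay above every CD library on the normalized scale, as it did for 8.61% of all genes. *Mpc1* and *Pdha1* remained called with any library left out, at adjusted p values of 0.00843 to 0.0200 and of 0.0321 to 0.0499. *Pdk2* was not called with any library left out, nor with median centring (0.0742), without quantile normalization (0.118) or without the mean-variance trend (0.0757). *Pdk1*, *Pdk4* and *Pdp2* differed by 0.01, 0.13 and -0.04 between the diets and did not pass. The median difference of the 7 genes was 0.15, against 0.0109 over all genes.

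Some cell markers that moved with the diet were read beside these results, those of stellate and Kupffer cells in more detail. Among the hepatocyte markers, *Tat*, *Cps1* and *Apoa1* were lower on HFD and *Cyp2e1* and *Hnf4a* higher, without overlap in each genotype. *Tat* went from 876.5 and 1036 FPKM to 322.5 and 250.4 in f/f livers. In LKO-labelled livers it went from 480.4 and 586 to 302.2 and 284.4. *Serpina1c* overlapped, and *Ttr* was higher on HFD in f/f but lower in LKO-labelled livers. The erythroid marker *Alas2* was lower on HFD in both genotypes. Endothelial markers summed to 45.1 to 46.1 FPKM in CD-fed and 50.3 to 52.8 in HFD-fed f/f livers. In LKO-labelled livers their sums overlapped between the diets (36.6 to 47.95 and 44.3 to 55.6). The 6 stellate cell markers, all of them above 1 FPKM in at least 1 library, summed to 55.3 to 59.3 FPKM in CD-fed and 67.4 to 91.1 in HFD-fed f/f livers, and to 36.6 to 47.9 and 70.8 to 91.8 in LKO-labelled livers. Most of each sum came from 1 gene, *Dcn*, at 43.3 and 45.3 FPKM on CD and 72.2 and 52.5 on HFD in f/f livers, and at 36.60 and 26.4 and 71.3 and 54.6 in LKO-labelled livers. The collagen genes did not follow it, as *Col1a1* was at 1.076 and 1.005 FPKM on CD and 0.922 and 0.785 on HFD in LKO-labelled livers, and the values of *Col3a1* on the diets overlapped in both genotypes. *Rgs5* did rise, from 6.97 and 6.75 FPKM on CD to 11.8 and 9.23 on HFD in f/f livers. In LKO-labelled livers it went from 5.215 and 4.93 to 12.2 and 10.2. *Des* also lay higher on HFD without overlap in each genotype, and *Lrat* in LKO-labelled livers alone. The 8 Kupffer cell and macrophage markers summed to 90.9 to 107 FPKM on CD and 63.4 to 77.6 on HFD in f/f livers, and to 82.0 to 92.6 and 75.2 to 118 in LKO-labelled livers. The part of these cells in the diet differences was not tested.

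*Pdha1* and *Pdhb* encode the partner subunits of E1, and they moved in opposite directions with the diet. *Pdhb* was at 83.7 and 87.7 FPKM in CD-fed f/f, 67.0 and 71.2 in HFD-fed f/f, 89.3 and 83.2 in CD-fed LKO-labelled and 61.2 and 60.7 in HFD-fed LKO-labelled livers. On the log2 scale it fell by 0.39 on HFD in LKO-labelled livers (limma adjusted p = 0.0454) and averaged over the genotypes by 0.33 (adjusted p = 0.0146), whereas in f/f livers it was -0.27 and did not pass (0.130). The calls for *Pdhb* were not tested with a library left out or under other settings. The ratio of *Pdha1* to *Pdhb* FPKM, which was formed after the values had been seen, was 0.607 and 0.590 in CD-fed f/f and 0.868 and 0.817 in HFD-fed f/f livers. It was 0.622 and 0.660 in CD-fed LKO-labelled and 1.14 and 1.11 in HFD-fed LKO-labelled livers. Each HFD ratio lay above each CD ratio, and the HFD-fed LKO-labelled livers had ratios above 1. The ratio of *Mpc1* to *Mpc2*, partners in the carrier, was 1.83 and 1.98 in CD-fed and 2.35 and 2.59 in HFD-fed f/f livers, and 2.11 and 1.82 in CD-fed and 3.10 and 2.72 in HFD-fed LKO-labelled livers. The summed kinase FPKM relative to *Pdha1* ranged from 1.40 to 1.79, lowest in both HFD-fed LKO-labelled pools (1.496 and 1.40).

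**Figure D4:**
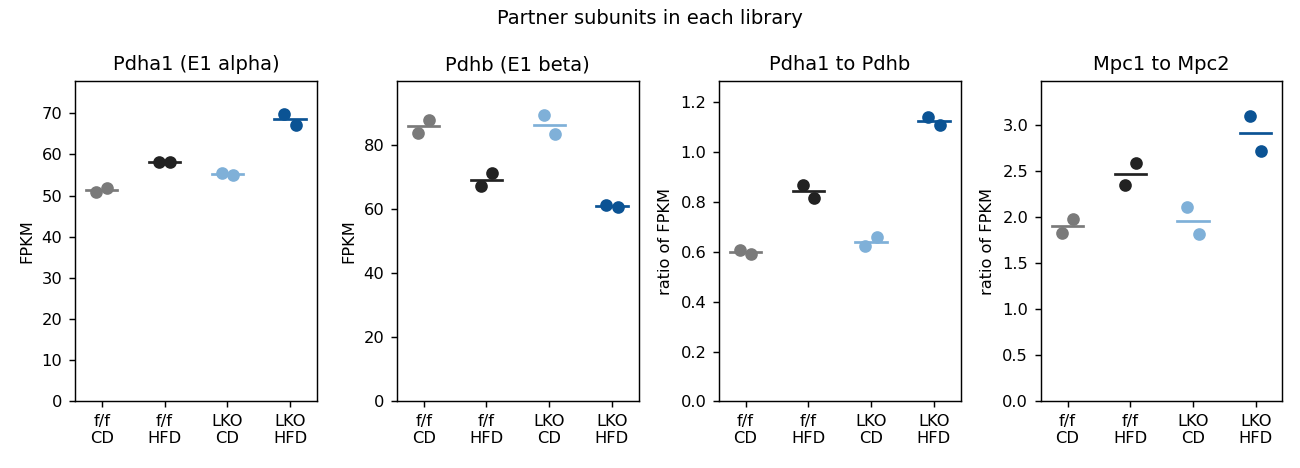
FPKM of *Pdha1* and *Pdhb*, and the ratios of *Pdha1* to *Pdhb* and of *Mpc1* to *Mpc2*, by genotype and diet, with libraries as points and means as lines on axes that start at 0. Both ratios are higher in every HFD library than in every CD library, and the ratio of *Pdha1* to *Pdhb* reaches 1.14 and 1.11 in HFD-fed LKO-labelled livers.

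Around these genes, 43 others of pyruvate and acetyl-CoA metabolism and its regulation were read, of which 41 were tested. None was called between the genotypes on either diet. On HFD, 5 of the 41 were higher and 2 lower at an unadjusted p under 0.05, against 5.46% and 4.12% of all genes, and on CD 5 were higher and 3 lower, against 6.15% and 6.12%. On HFD these included *Slc16a1*, a monocarboxylate transporter (0.63, limma adjusted p = 0.246), and *Me1*, the malic enzyme of the cytosol that makes pyruvate and NADPH (0.83, adjusted p = 0.324). Both were also higher at that level on CD, *Slc16a1* by 0.37 (limma adjusted p = 0.357) and *Me1* by 0.81 (adjusted p = 0.255). On CD, the 3 genes lower at that level were regulators. *Foxo1*, a forkhead factor known to activate *Pdk4* transcription, was at 17.7 and 18.3 FPKM in CD-fed f/f and at 9.39 and 8.998 in CD-fed LKO-labelled livers (-0.88, adjusted p = 0.0757). The coactivator gene *Ppargc1a* (-0.55, adjusted p = 0.196) and *Foxo3* (-0.35, 0.207) were the others. *Foxo3* was also 1 of the 2 genes lower at that level on HFD (-0.27, limma adjusted p = 0.350), without overlap. On HFD, *Foxo1* was at 14.9 and 11.95 FPKM in f/f and at 11.5 and 12.3 in LKO-labelled livers, and its interaction was 0.74 (adjusted p = 0.453).

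Between the diets, some of the 41 genes were called. Whether these calls hold with a library left out or under other settings was not tested. In f/f livers 1 was called lower, against 0.705% of all genes, and in LKO-labelled livers 1 was called higher and 2 lower, against 1.57% and 1.44%. *Acly*, the enzyme that makes acetyl-CoA from exported citrate, fell by 1.12 on the log2 scale in f/f livers (limma adjusted p = 0.0248) and by 1.37 in LKO-labelled livers (0.00946). Its FPKM was 38.8 and 47.9 in CD-fed f/f, 18.5 and 19.2 in HFD-fed f/f, 43.3 and 41.0 in CD-fed LKO-labelled and 16.3 and 14.5 in HFD-fed LKO-labelled livers. *Slc16a7*, a pyruvate and lactate transporter of the plasma membrane, rose by 0.78 in LKO-labelled livers (adjusted p = 0.0352) and differed by 0.42 in f/f livers (0.157). *Pdhb* was the third gene called in LKO-labelled livers. *Pcx*, the pyruvate carboxylase that competes with the complex for pyruvate, was at 96.0 and 97.9 FPKM in CD-fed and 130 and 147 in HFD-fed f/f livers, and missed the threshold there (0.54, adjusted p = 0.05 when rounded).

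Averaged over the genotypes, 4 of the 41 genes rose on HFD and 4 fell, against 5.04% and 4.86% of all genes. Among those that rose were *Pcx* (0.50, limma adjusted p = 0.00901), *Slc16a7* (0.60, 0.0136) and *Lias*, the lipoic acid synthase that equips the complex with its cofactor (0.23, 0.0424). Those that fell were *Acly* (-1.25, 0.00164), *Pdhb* (-0.33, 0.0146), the mitochondrial citrate carrier gene *Slc25a1* (-0.40, 0.0164) and *Pck1*, which makes phosphoenolpyruvate for gluconeogenesis (-0.67, 0.0479). None of the other subunit genes of the complex was called. Between the diets, *Dlat* differed by 0.34 in f/f and -0.06 in LKO-labelled livers (interaction -0.39, limma adjusted p = 0.576), *Pdhx* by -0.22 and -0.12, and *Dld* by 0.02 and 0.23. Both libraries on HFD were above both on CD for *Dlat* in f/f and *Dld* in LKO-labelled livers, and below them for *Pdhx* in each genotype. The median over the 41 genes was 0.0228, against 0.0109 over all genes.

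**Figure D5:**
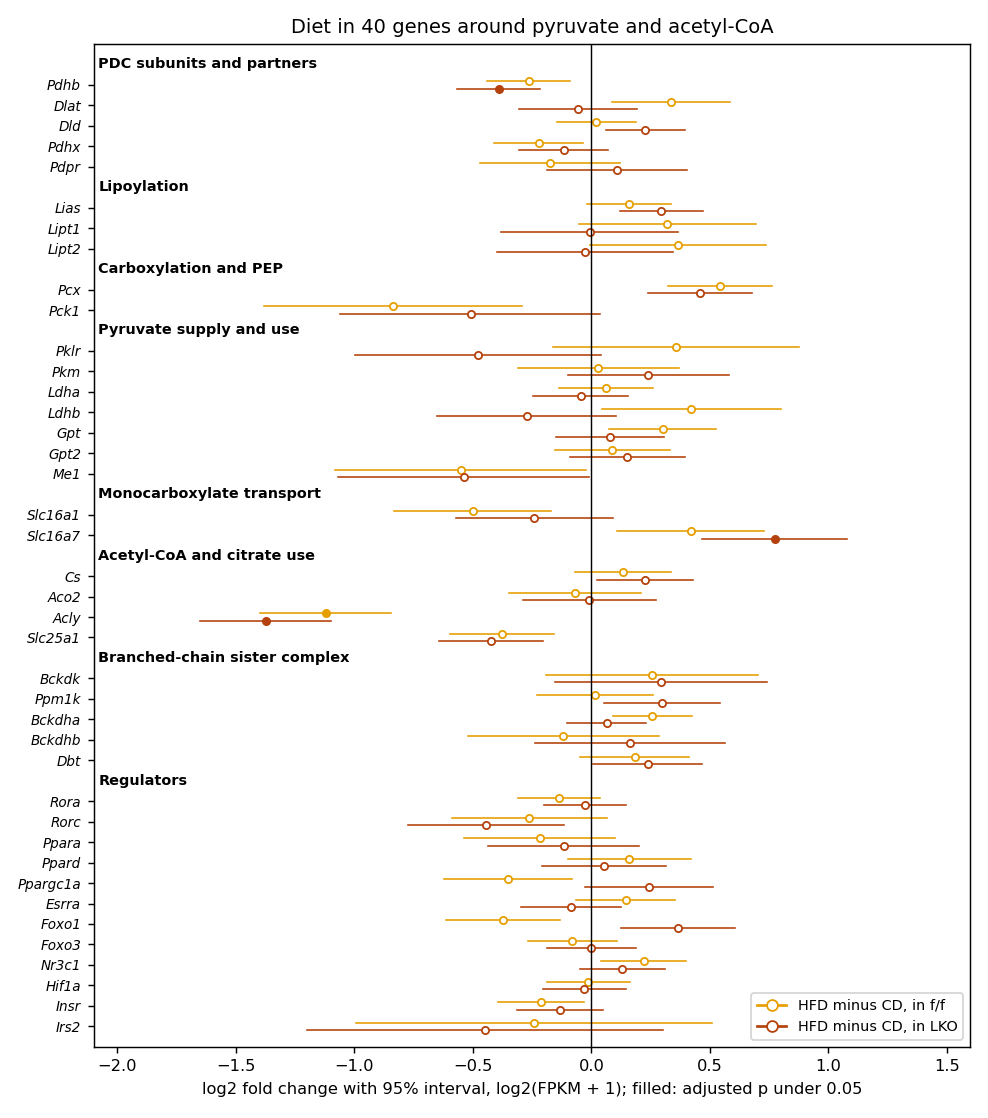
Log2 fold change on HFD against CD, with 95% intervals, for 40 of the 41 tested genes around pyruvate and acetyl-CoA, grouped by role and drawn for f/f and LKO-labelled livers; filled points have a limma adjusted p under 0.05. *Acly* is filled in both genotypes, at -1.12 and -1.37, and *Pdhb* and *Slc16a7* in LKO-labelled livers alone, where the difference between the genotypes was not called (interaction adjusted p = 0.743 and 0.651).

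Promoters are shown for the 3 genes called under diet and for *Pdk4*, whose genotype difference on HFD was the largest of the 7, so that the results can be set beside sequence. RefSeq promoters (GRCm38.p6, 250 bases before to 50 after a start) were matched for 8 of the 9 genes, 11 promoters in all, and *Pdp1* had no entry. Letters in capitals mark matches, on either strand, to the CCAAT box or the E-box CACGTG.
Pdk4, chr6:5496229-5496528, minus strand: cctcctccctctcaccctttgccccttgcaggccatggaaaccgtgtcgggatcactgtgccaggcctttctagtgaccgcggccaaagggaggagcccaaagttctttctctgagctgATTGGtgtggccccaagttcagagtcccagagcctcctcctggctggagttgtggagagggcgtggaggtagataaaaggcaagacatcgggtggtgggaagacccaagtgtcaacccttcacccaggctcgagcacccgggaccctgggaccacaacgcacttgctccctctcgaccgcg
Pdha1, chrX:160138381-160138680, minus strand: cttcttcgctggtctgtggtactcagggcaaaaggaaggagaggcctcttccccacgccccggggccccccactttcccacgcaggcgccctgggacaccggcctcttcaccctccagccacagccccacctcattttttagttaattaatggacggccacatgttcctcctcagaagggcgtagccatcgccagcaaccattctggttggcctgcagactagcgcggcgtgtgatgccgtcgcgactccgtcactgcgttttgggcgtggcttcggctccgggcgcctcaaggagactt
Mpc1, chr17:8283537-8283836, plus strand: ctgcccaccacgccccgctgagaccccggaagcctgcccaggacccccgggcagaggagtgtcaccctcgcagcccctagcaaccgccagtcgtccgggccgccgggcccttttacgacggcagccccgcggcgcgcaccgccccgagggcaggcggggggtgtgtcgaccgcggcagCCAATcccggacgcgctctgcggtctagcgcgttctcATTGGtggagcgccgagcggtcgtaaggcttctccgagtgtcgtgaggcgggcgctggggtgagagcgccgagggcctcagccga
Pdk2, chr11:95041322-95041621, minus strand: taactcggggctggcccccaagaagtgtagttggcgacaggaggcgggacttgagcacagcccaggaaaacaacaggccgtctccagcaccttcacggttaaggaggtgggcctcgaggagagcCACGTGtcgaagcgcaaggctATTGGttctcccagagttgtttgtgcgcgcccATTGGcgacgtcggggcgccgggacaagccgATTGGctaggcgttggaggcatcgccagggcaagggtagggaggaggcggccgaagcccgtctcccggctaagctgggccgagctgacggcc
The *Pdk4* promoter held 1 CCAAT box on the strand opposite the gene, from -131 to -127 relative to the start, and that of *Mpc1* held 2, from -72 to -68 and from -35 to -31. The *Pdk2* promoter shown held 3 CCAAT boxes and an E-box, and that of *Pdha1* held no match. A second *Pdk2* promoter, at chr11:95040826-95041125, held no match either. CCAAT was present in 37.4% and CACGTG in 7.15% of all 32851 promoters. Of the ROR response element, a single pattern of 10 letters ending in AGGTCA was searched (0.219% of promoters). Forms with other A/T-rich bases before the hexamer, or with GGGTCA in its place, were not searched as this element. Also searched were the extended site TCAAGGTCA (0.423%), the direct repeat of AGGTCA spaced by 1 base (0.0396%) and the forkhead site GTAAACA (3.65%). None of these patterns was in the 11 promoters. The hexamer AGGTCA (16.3%), which the first 3 of these contain, was in a second *Mpc1* promoter at chr17:8284204-8284503, and GGGTCA (13.7%) in a second *Pdk1* promoter at chr2:71874654-71874953. Absence of these letters from a window says only that they are not in it.

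Within the group, *Mpc1* correlated most with *Pdk2* and with *Pdha1* over the 8 libraries (Pearson's r = 0.932 for each), and *Pdk2* with *Pdha1* (0.881). *Pdk4* reached at most 0.544 with another member, which was *Pdha1*. Of all tested genes, the 3 most like *Pdk4* were *Acot2* (0.962), an acyl-CoA thioesterase of mitochondria with near-identical paralogs, *Mplkip* (0.957) and *Pex11a* (0.940), a peroxisome proliferation gene. Those most like *Pdha1* were *Vnn3* (0.994), *Cd81* (0.988) and *Nt5e* (0.986), and those most like *Mpc1* were *Ppp1ca* (0.988), *Srsf5* (0.988) and *Slco1b2* (0.981). For *Pdk2* they were *Hdac11*, *Nkd1* and *Amt* (0.974 to 0.978), for *Mpc2* *Epas1*, *Tbc1d13* and *Pno1* (0.976 to 0.983), for *Pdk1* *Flna*, *Msrb2* and *Inpp5d* (0.905 to 0.971) and for *Pdp2* *Ppp1r16a*, *Ext2* and *Atp6v0b* (0.928 to 0.948). The 8 points of each correlation fall into 4 groups of 2 libraries, and the values are a description.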

How the data were processed

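Livers of 4 mice per group were pooled by 2 into 2 poly(A) libraries. The authors trimmed reads with cutadapt 1.0 at a Phred score of 20, aligned them to GRCm38 with TopHat2 2.0.7 and estimated FPKM with Cufflinks, whose version is not given in the sources used here, and the deposited values are FPKM on a linear scale, with no read counts. Cufflinks divides reads shared by several genes.

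Of 38283 identifiers, 36341 matched a symbol in GENCODE M21. Genes above 1 FPKM in at least 1 library (11634) were put on the log2(FPKM + 1) scale and quantile normalized. limma 3.58.1 (R 4.3.3) was fitted once over the 8 libraries with a mean-variance trend, giving 4 residual and 2.8 prior degrees of freedom. Benjamini-Hochberg adjustment ran over all genes of a comparison, and an adjusted p under 0.05 was called. The contrasts were genotype on each diet, diet in each genotype, the interaction and both averages. The permutation procedure of the study was not run. Group values are mean ± SD of deposited FPKM. Coding sequences were aligned with Biopython 1.88 and mafft 7.526, and figures drawn with matplotlib 3.10.9. The limma step alone was tested on values simulated on the normalized log2 scale.

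Members and lists were chosen with earlier results of these data known. Genes named are the members, *Rora*, pathway genes called in a comparison, for genotype and diet also the 3 of lowest p under 0.05 whose groups do not overlap, and the 3 genes of highest r with each member. *Dlat*, *Dld* and *Pdhx*, partners of *Pdha1*, were named after their values were seen, as were the values of *Foxo1* and *Foxo3* on HFD. A regulator gene that the rule names is not reported here. Alternatives tried were other normalization, pseudocount, filters, the replicate block, no trend, the 4 libraries of a comparison alone and each library left out. They were read for the members and for counts over all genes, not for single pathway genes.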

Additional observations from a re-analysis of the deposited data

How the results depend on the processing

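With 2 pools per group the adjusted calls sit near the threshold, and FPKM gives no depth to weigh values by. No member was called between the genotypes or for the interaction under any alternative run. For diet in f/f livers the 1 call became 0 when the 4 libraries were fitted alone, when genes above 0 FPKM were all kept, with the replicate block, without the trend and with each library left out (0 to 0). For diet in LKO-labelled livers the 2 calls became 0 with the 4 libraries alone, 1 with the lower filter, the replicate block or no trend, and 0 to 1 with a library left out. Fitting 4 libraries alone leaves fewer degrees of freedom, and the lower filter tests 20816 genes. Why the calls changed was not tested for any of these settings. The replicate numbers only name libraries: deviations of same-numbered libraries correlated at -0.00371 to 0.149, and at -0.0611 to 0.0351 without genes listed at 0. The replicate block also took *Pdk2* averaged over genotypes to an adjusted p of 0.0596 and changed no other call among the members, while calls over all genes in f/f livers went from 155 to 34. Over all genes, calls between the diets numbered 155 in f/f livers, 351 in LKO-labelled livers and 1151 averaged over the genotypes. In the same order they numbered 46, 135 and 704 with the lower filter. Where all 8 libraries had to pass 1 FPKM, they numbered 323, 570 and 1304. Genes with both groups close changed sign. *Mpc2* averaged over diets was -0.00449 with median centring and -0.0112 without quantile normalization, and *Pdk1* averaged over genotypes -0.0162 without it. With a library left out, log2 differences of uncalled genes crossed 0 in these ranges. For genotype on HFD: *Mpc2* -0.0885 to 0.0515, *Pdk1* -0.112 to 0.352, *Pdk2* -0.00546 to 0.0911, *Pdp2* -0.0459 to 0.250. For genotype on CD: *Mpc1* -0.00885 to 0.148, *Pdk1* -0.0763 to 0.438, *Pdk4* -0.371 to 0.626. For genotype over both diets: *Mpc2* -0.0249 to 0.0443. For the interaction: *Mpc2* -0.127 to 0.0142, *Pdk1* -0.317 to 0.196, *Pdk2* -0.0699 to 0.0276, *Pdp2* -0.209 to 0.0846. For diet in f/f: *Pdk1* -0.218 to 0.298, *Pdp2* -0.0552 to 0.0464. For diet in LKO: *Pdk1* -0.252 to 0.211, *Pdp2* -0.215 to 0.0800. For diet over both genotypes: *Pdk1* -0.119 to 0.139, *Pdk4* -0.119 to 0.378, *Pdp2* -0.110 to 0.0377.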
